A study of Mus musculus with 18 samples.

Results

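Ferritin and iron handling were followed here through 10 named mouse genes in bone marrow-derived macrophages (BMDMs). They are Fth1, Ftl1, Hmox1, Slc40a1, Tfrc, Slc11a1, Slc11a2, Ncoa4, Aco1 and Ireb2, listed by symbol and matched to the Ensembl identifiers of the count files, and 10 of 10 were found among 49315 counted genes. Femur marrow was grown into macrophages in medium conditioned by L929 cells. The mice were on a C57BL/6J background, and their age was not given in the sources used here. The control label is WT, and the study's controls were mice with a floxed exon of Hdac3 (HDAC3 f/f). The HDAC3 KO label stands for mice with the same floxed exon and a Cre recombinase knocked into Lyz2 (LysM-Cre), which is active in myeloid cells and removes Hdac3 only where Cre has acted. Macrophages of each label were left untreated, cocultured for 45 min with non-apoptotic cells (NAC), or cocultured for 45 min with apoptotic cells (AC), then washed and kept for 5 h. The added cells were K562, a human leukemia line with erythroid features, and the AC had been exposed to UVB for 15 min beforehand. The untreated libraries are the background against which both cocultures are read, and no library of K562 cells alone was analysed here. Each of the 6 groups held 3 libraries labelled as biological replicates, 18 in all. Whether libraries of different treatments came from the same animals was not stated.

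Macrophages take in iron from transferrin and from engulfed red cells, store it and return it to the blood. Iron outside the cell enters through the transferrin receptor (Tfrc), and iron leaves endosomes and phagosomes through the proton-coupled transporters Slc11a2 (DMT1) and Slc11a1 (NRAMP1). Hmox1 opens the heme ring and frees its iron, ferritin (Fth1 and Ftl1) stores iron, Ncoa4 delivers ferritin to lysosomes for release, and Slc40a1 (ferroportin) exports it. Aco1 and Ireb2 encode the iron regulatory proteins, which bind RNA hairpins called iron-responsive elements (IREs) when iron is scarce. An IRE in a 5′ UTR then blocks translation, and IREs in a 3′ UTR stabilise the messenger, so part of this control leaves no trace in messenger counts.

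The hairpins are shown because they link the regulatory proteins to their targets among the 10 genes. A search for a C, any 5 bases, the loop CAGTGN and 5 bases that pair with the stem (G-T pairs allowed) was run on the sense strand of GENCODE M21 transcripts. It found sites in 4 of the 10 genes. In the 30 bases printed for each site, 5′ to 3′ on the transcript strand, capitals mark the bulged C and the 6 loop bases. The sites of Fth1 (chr19:9982732-9982761, plus strand), Ftl1 (chr7:45459778-45459807, minus strand) and Slc40a1 (chr1:45925464-45925493, minus strand) lie in the 5′ UTR, in exon 1, on GRCm38.
Fth1: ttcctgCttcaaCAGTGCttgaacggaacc
Ftl1: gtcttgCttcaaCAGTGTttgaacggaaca
Slc40a1: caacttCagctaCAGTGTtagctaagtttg
Tfrc held 4 sites in its 3′ UTR, all in exon 19 on the plus strand of chromosome 16, at chr16:32631219-32631248, chr16:32631598-32631627, chr16:32631663-32631692 and chr16:32631710-32631739.
Tfrc site 1: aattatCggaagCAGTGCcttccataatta
Tfrc site 2: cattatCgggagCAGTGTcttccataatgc
Tfrc site 3: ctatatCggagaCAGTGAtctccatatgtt
Tfrc site 4: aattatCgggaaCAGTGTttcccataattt
The same letters occur in the annotated 5′ UTR of 31 of 20916 genes (0.148%) and in the 3′ UTR of 129 of 21707 genes (0.594%). These are matches of letters in reference transcripts and no binding was measured. The other 6 genes held no match to this pattern. The pattern asks for a fixed loop and 5 paired bases without a break, so an IRE of another form would be missed. The search therefore cannot show that a gene lacks an IRE, or that Tfrc holds no further ones.

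Gene counts summed to 4704491 to 26421267 per library, and the smallest library was HDAC3 KO untreated replicate 1. Levels are given in CPM after TMM scaling over all 18 libraries, which made them 0.661 to 1.35 times the CPM by library totals, lowest in WT untreated replicate 2 and highest in HDAC3 KO untreated replicate 2. Where a separation of groups described for the 10 genes depends on this scaling, the result with library totals is given too. The summed level of 10 macrophage markers was 14155 to 30484 CPM, and single markers were lower, down to 22.3 CPM for Itgam and 27.4 CPM for Mertk. With AC this sum did not overlap between labels (14513 to 17434 CPM in WT and 20279 to 25976 CPM in HDAC3 KO), and its part in the results was not tested. It takes in Lyz2 (3028 to 5391 CPM in WT and 4064 to 10472 CPM in HDAC3 KO with AC), and without Lyz2 the sums overlapped. Among single markers with AC, Adgre1 was higher with the HDAC3 KO label (395 to 437 CPM in WT and 600 to 1623 CPM in HDAC3 KO). Mertk was lower (119 to 134 and 27.4 to 65.4 CPM), and the other markers overlapped. Single markers, picked here after their values were seen, also moved with the labels, in different directions. With NAC, Adgre1 was higher with the HDAC3 KO label without overlap (222 to 449 CPM in WT and 497 to 673 CPM in HDAC3 KO). Itgam was too (22.3 to 39.0 and 42.3 to 85.3 CPM), and both overlapped between labels untreated. C1qa was at 1055 to 2169 CPM in WT and 3618 to 4797 CPM in HDAC3 KO untreated libraries, and at 2641 to 5880.5 and 2072 to 2462 CPM with NAC. Cd14 likewise changed order without overlap (536 to 1136 and 1303 to 2613 CPM untreated, 1618 to 2899.6 and 716 to 1292 CPM with NAC). With library totals the untreated groups of Cd14 overlapped. Csf1r, Cd68, Fcgr1, Mertk and C1qb overlapped between labels with NAC. In untreated libraries C1qb did not overlap, at 2509 to 4288 CPM in WT and 4495 to 8066 CPM in HDAC3 KO. With library totals these C1qb groups overlapped. Lyz2, the gene that carries Cre in the knock-in, was at 4533 to 13805 CPM in WT and 1479 to 3091 CPM in HDAC3 KO untreated libraries, and overlapped with NAC. The part of these markers in the results was not tested. Hdac3 itself did not separate the labels, at 3.38 to 48.8 CPM in the 9 libraries labelled WT and 4.66 to 74.6 CPM in the 9 labelled HDAC3 KO. Its count also takes in exons outside the floxed one, so it checks the labels only in part, and directions below are those of the labels. Of 16 erythroid genes that could mark K562 or red cells, 15 were among the counted genes and 13 had a count in some library. Their summed level ran from 6.90 to 63.0 CPM, highest in WT AC replicate 3, where the globin Hba-a1 reached 40.9 CPM. Tal1 alone was at 5.57 CPM in WT untreated replicate 1, its lowest, and made up 18.4 of the 20.3 CPM of HDAC3 KO NAC replicate 3. The lower end of the sum is thus no sign of K562 RNA. The summed levels of markers of other cells ran from 227 to 1281 CPM (12 granulocyte genes), 10.4 to 82.1 CPM (10 B cell genes), 6.43 to 241 CPM (10 fibroblast genes), 1.26 to 15.3 CPM (10 dendritic cell genes) and 62.9 to 289.8 CPM (12 proliferation genes). Untreated libraries differed between labels without overlap for the B cell list (10.8 to 23.8 CPM in WT and 33.0 to 82.1 CPM in HDAC3 KO) and the dendritic list (1.26 to 5.43 and 12.6 to 15.3 CPM). With NAC both lists again did not overlap, in the opposite direction, at 26.1 to 40.9 CPM in WT and 13.0 to 22.4 CPM in HDAC3 KO (B cell) and 6.95 to 9.14 and 2.42 to 5.48 CPM (dendritic). With AC the B cell sums overlapped, and the dendritic sums were 4.30 to 8.70 CPM in WT and 8.92 to 12.7 CPM in HDAC3 KO. The fibroblast sums of HDAC3 KO libraries were 8.71 to 48.4 CPM with NAC, below the 78.9 to 113 CPM untreated and the 86.8 to 241 CPM with AC, and their part in the results was not tested either. The B cell and dendritic sums thus change order between the labels in the same groups as the NAC interaction below, and the part of these cells in the results was not tested. The reads had been aligned to the mouse genome alone, so the share of human ferritin reads that aligned to mouse Fth1 and Ftl1 was not tested. In bulk RNA, fewer cells of a type and less RNA per cell cannot be told apart.

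The libraries also differed in how their counts followed the GC content of genes, in a way that moves with the groups. The slope of log2 CPM per 10 points of GC percent was from -0.74 to -0.39 in the 3 WT untreated libraries and from -0.19 to 0.43 with NAC. In libraries labelled HDAC3 KO the order was opposite, from 0.17 to 0.90 untreated and from -0.50 to -0.26 with NAC. The AC libraries spread over both ranges, from -0.51 to 0.45 (WT) and from -0.33 to 0.72 (HDAC3 KO). The 10 genes span this axis. Ireb2 (38.4% GC) and Tfrc (39.4%) are among the lowest of the genes kept, whose median is 50.3%, and Ftl1 (57.7%) and Slc11a1 (55.6%) are among the higher. Each call on the 10 genes is therefore given with its value after an offset for GC content and length in each library.

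Ferritin was by far the most abundant product of the 10 genes. Per kb of counted length, the median level over the 18 libraries was 48851 CPM per kb for Fth1, the heavy chain with ferroxidase activity, and 17443 CPM per kb for Ftl1, the light chain. Hmox1 followed at 368 and Slc11a1 at 125 CPM per kb. Fth1 lay above Ftl1, and Ftl1 above Hmox1, in 18 of 18 libraries, and Hmox1 lay above Slc11a1 in 17 of 18. Slc11a2 (9.65 CPM per kb), Tfrc (7.23), Ncoa4 (7.16) and Aco1 (7.10) formed a lower group. Within it neighbours were not separated, since Slc11a2 lay above Tfrc in 13, Tfrc above Ncoa4 in 7 and Ncoa4 above Aco1 in 7 of the 18 libraries. Slc40a1 (2.91) lay below Aco1 in 18 of 18, and Ireb2 (1.59) was lowest, below Slc40a1 in 16 of 18. This order depends on the counted length, 9000 bases for Slc40a1 and 4496 for Aco1, which may differ from that of the messenger expressed. In CPM not divided by length, Slc40a1 was above Aco1 in some libraries, such as WT untreated replicate 2 (38.4 and 23.7 CPM). The spread of a single gene over the libraries was smallest for Hmox1, whose highest CPM was 3.55 times its lowest, and largest for Ncoa4, at 25.2 times.

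**Figure D1:**
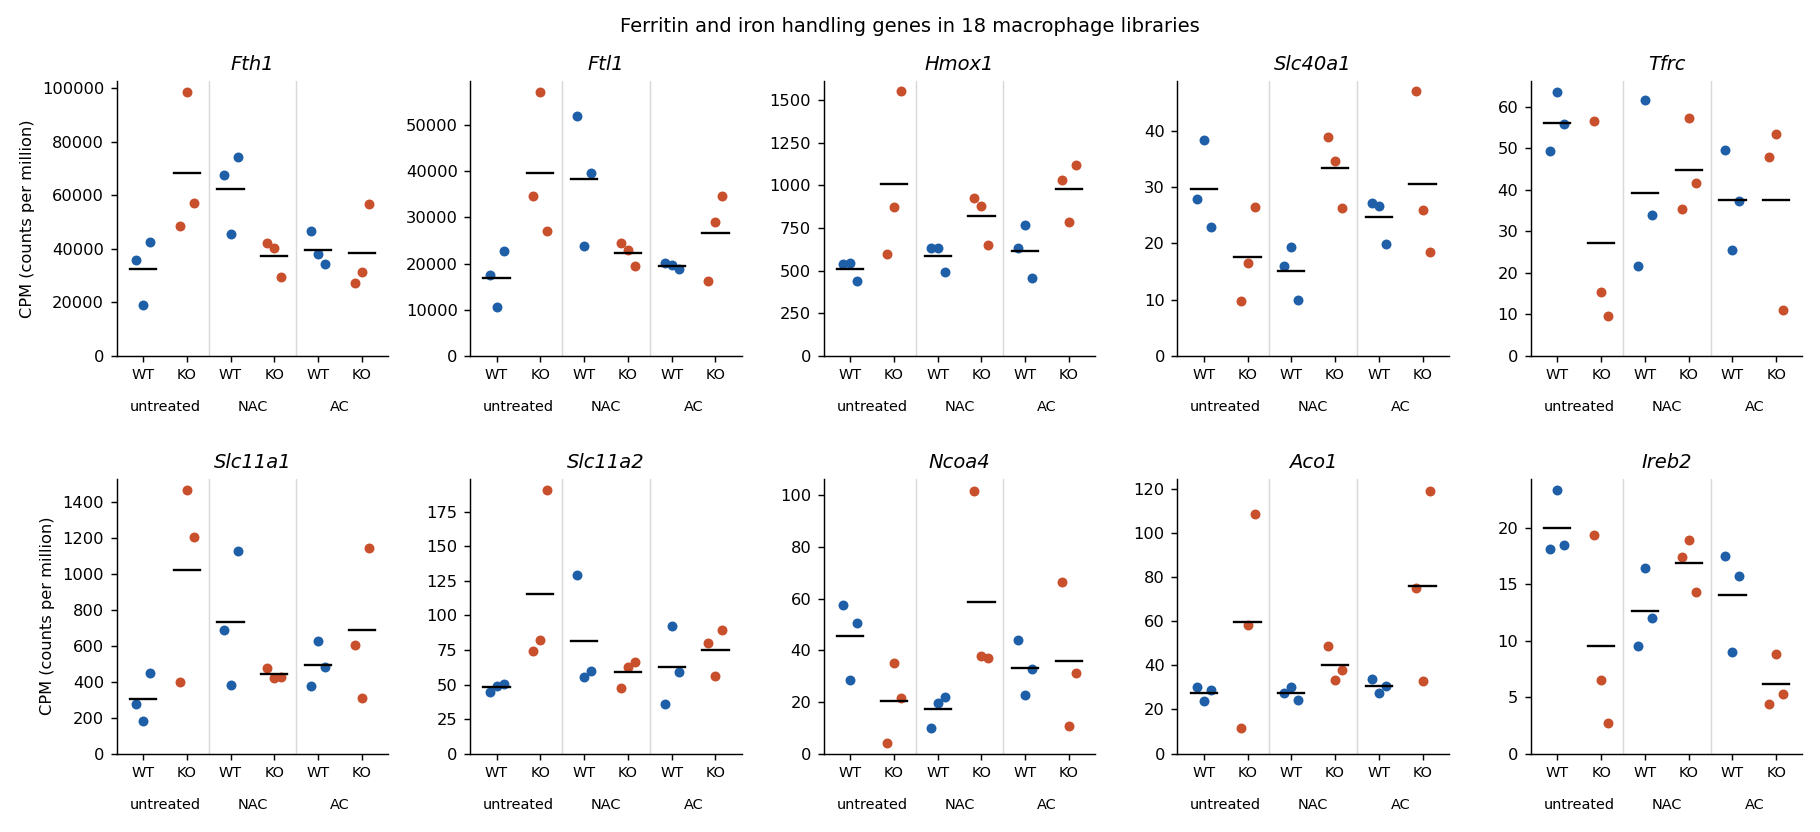
Level of each of the 10 genes in the 18 libraries, in CPM on a linear axis from 0, by treatment and label (blue WT, red HDAC3 KO). Points are libraries, in order of replicate number, and bars are group means of 3. On this TMM scale Hmox1 is the gene whose red points lie above the blue points in each of the 3 treatments, and Fth1 and Ftl1 reach 98596 and 57235 CPM.

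Together Fth1 and Ftl1 took 4.47% to 11.5% of all gene counts in a library. The Wilson 95% interval of a single share was narrow at this depth, 4.46% to 4.48% for the lowest share and 11.5% to 11.6% for the highest, and covers counting error only. Fth1 was the most or next most counted gene in every library, with a rank from 1 to 2, and Ftl1 ranked from 2 to 6. The mean share was 5.61% ± 1.07 (SD, n = 3) in WT untreated and 8.71% ± 1.45 in WT NAC libraries, with no overlap between them. It was 8.42% ± 2.72 in HDAC3 KO untreated and 6.63% ± 0.37 in HDAC3 KO NAC libraries, which overlapped. With AC the shares were 6.32% ± 0.40 (WT) and 6.31% ± 1.21 (HDAC3 KO).

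The ratio of heavy to light chain messenger per kb varied less than either chain, from 1.67 to 3.59 over the 18 libraries. It was 3.13 ± 0.41 in WT AC and 2.26 ± 0.51 in HDAC3 KO AC libraries (SD, n = 3 each), and these groups did not overlap. The other 4 group means lay between 2.57 and 2.95. Ftl1 has processed copies elsewhere in the genome, and the annotated transcript of Ftl1-ps1 is identical to that of Ftl1 at 906 of 910 aligned bases (99.6%). The count of Ftl1-ps1 was 0.220% to 0.249% of that of Ftl1 in every library. The transcripts of Ftl2-ps and Ftl1-ps2 were identical to that of Ftl1 at 98.7% of 552 and 97.8% of 549 aligned bases. Reads shared with such copies make the absolute Ftl1 count uncertain. The same holds for the ratio of the chains and for their order per kb, which also depends on the counted lengths.

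**Figure D2:**
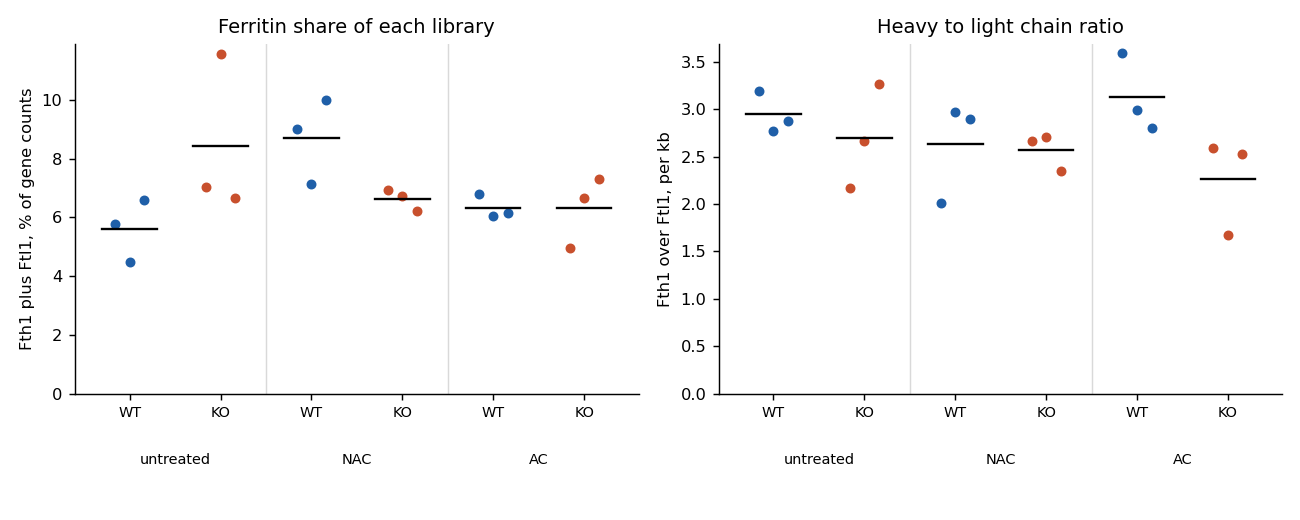
Ferritin share and chain ratio in the 18 libraries. Left, counts of Fth1 plus Ftl1 as a percentage of all gene counts, and right, Fth1 over Ftl1 in CPM per kb, by treatment and label, with group means as bars. Shares range from 4.47% to 11.5%, and the 3 HDAC3 KO AC ratios lie below the 3 WT AC ratios.

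All 10 genes passed the filter on low counts in each comparison, and 9 comparisons between pairs of groups and 3 interactions were tested with edgeR's quasi-likelihood test. Calls are adjusted p values under 0.05 over all genes tested. A call on one of the 10 genes was made in 4 comparisons. The response to NAC differed between labels for 5 of the 10 genes, where 34.8% of all genes were called. For NAC against untreated within the WT label 1 of the 10 was called, with a background of 8.52%. Between labels with NAC it was 1 of the 10 (background 0.864%), and for AC against NAC within the HDAC3 KO label 1 of the 10 (background 7.38%). Read against these shares, the count in the interaction is not far from that of all genes. The libraries of the groups compared were fully separated for 6 members with NAC against untreated under WT (29.7% of all genes) and 4 under HDAC3 KO (38.7%), and between labels for 4 members untreated (40.9%), 5 with NAC (27%) and 2 with AC (28.3%). For AC against untreated this held for 1 member under WT (15.5% of all genes) and 0 under HDAC3 KO (21.5%), and for AC against NAC for 3 under WT (10.4%) and 1 under HDAC3 KO (29.4%). With library totals other members were separated in part, such as Slc40a1, Tfrc, Ncoa4 and Ireb2 in place of Fth1, Ftl1, Hmox1 and Slc11a2 between labels in untreated macrophages.

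No member passed in the other comparisons. Between labels in untreated macrophages, where 11.6% of all genes were called, 0 of the 10 passed with edgeR, 3 had an unadjusted p under 0.05 (37.2% of all genes) and 3 passed the Wald test of DESeq2 (27.4% of all genes). Between labels with AC (3.75% of genes) 0 passed, 2 had an unadjusted p under 0.05 (24.3% of genes) and 0 passed the Wald test (11.2%). For NAC against untreated within the HDAC3 KO label (6.54% of genes) 0 passed, 3 had an unadjusted p under 0.05 (30.4%) and 0 passed the Wald test (19.0%). For AC against NAC within WT these counts were 0, 2 and 0, against 0%, 4.16% and 0% of all genes. For the interaction of AC against NAC they were 0, 3 and 0, against 0.0765%, 20.0% and 5.83%. For AC against untreated within WT, within HDAC3 KO and in the interaction, edgeR called 0% of all genes in each, and all counts for the 10 genes were 0. Over all genes in these last 3 comparisons, 1551, 1761 and 3187 had an unadjusted p under 0.05 and the Wald test called 5, 15 and 1225.

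Under the WT label, NAC libraries lay above untreated libraries for Fth1, Ftl1 and Slc11a2 and below them for Ncoa4, Slc40a1 and Ireb2, without overlap of the groups (with library totals the Slc11a2 groups overlapped), and under the HDAC3 KO label the fitted differences of these 6 genes had the opposite sign. Of the 6 only Ncoa4 passed the test under the WT label, where a fit with the replicate number as a block called 4 of the 10 (15.0% of all genes). Without the block the adjusted p was 0.0590 for Slc40a1, 0.105 for Ftl1, 0.174 for Ireb2, 0.177 for Slc11a2 and 0.198 for Fth1. The difference between the labels' responses passed the test for Ncoa4, Slc40a1, Ireb2, Slc11a1 and Ftl1, 3 above and 2 below 0, against 2 and 4 with the size factors of DESeq2. Over all 13005 genes tested, 2869 interactions were called above 0 and 1661 below, but with the size factors of DESeq2 and its Wald test 2495 were above and 3144 below. The median interaction of all genes moved from 0.12 to -0.28 on the log2 scale between these scalings, and that of the 10 genes was -0.16 in the edgeR fit.

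**Figure D3:**
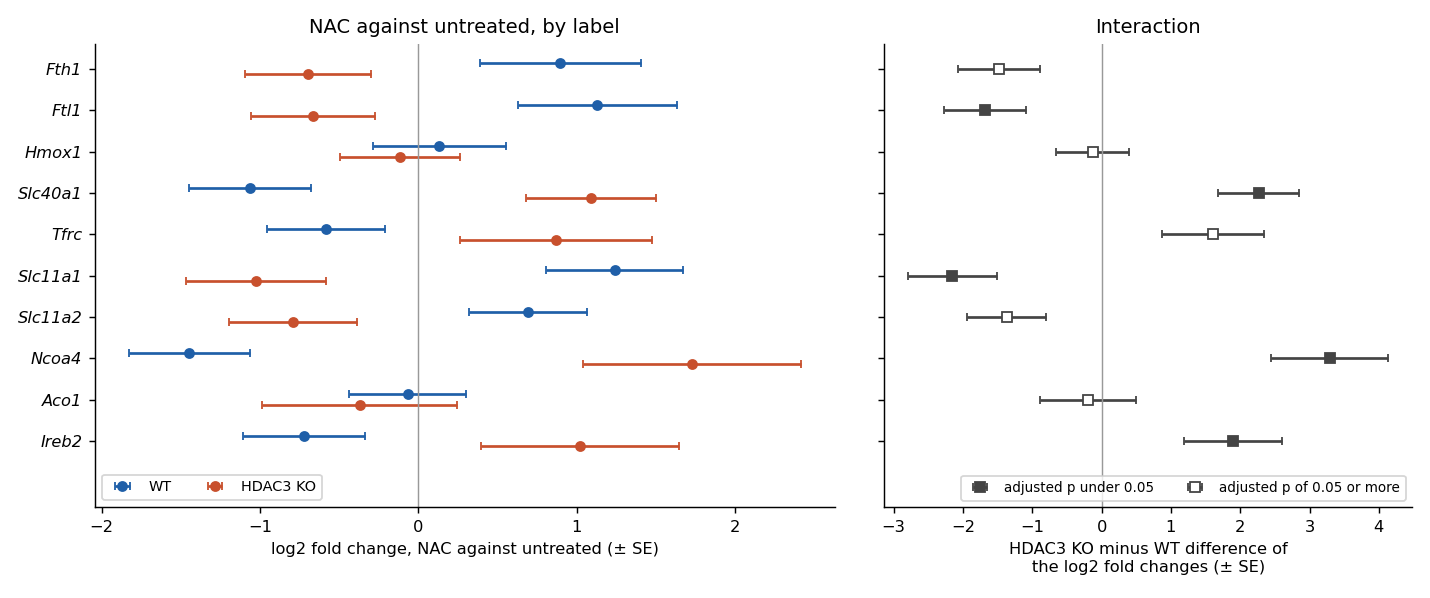
Response of the 10 genes to NAC. Left, log2 fold change of NAC against untreated with its standard error, in blue for WT and in red for HDAC3 KO, and right, the difference of these changes (interaction), filled where the adjusted p is under 0.05. The fitted changes have opposite signs in the labels for 9 of the 10 genes, all but Aco1, and 5 interactions are filled.

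Ncoa4, the receptor that carries ferritin to the lysosome, had the largest interaction. It lies at chr14:32159865-32179855 on the plus strand. Untreated libraries held 57.6, 28.4 and 50.5 CPM with the WT label and 4.02, 35.2 and 21.4 CPM with the HDAC3 KO label. After NAC the levels were 9.86, 19.7 and 22.1 CPM with the WT label and 102, 37.8 and 37.2 CPM with the HDAC3 KO label. All 3 NAC libraries of the WT label were thus below all WT untreated libraries, and all 3 of the HDAC3 KO label were above all HDAC3 KO untreated libraries. Ncoa4 fell by 1.45 on the log2 scale with NAC under the WT label (SE 0.38, adjusted p = 0.0218). Under the HDAC3 KO label the change was 1.73 (SE 0.69, adjusted p = 0.129), and the interaction was 3.29 (SE 0.85, adjusted p = 0.00869). With NAC, Ncoa4 was higher with the HDAC3 KO label than with the WT label by 1.81 (SE 0.42, adjusted p = 0.0443), with no overlap of the groups.

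None of these calls on Ncoa4 remained with the GC and length offset. The change under the WT label was then -0.87 (adjusted p = 0.212), the interaction 1.91 (adjusted p = 0.126) and the difference between labels with NAC 1.28 (adjusted p = 0.180). The change under the WT label and the difference between labels with NAC also lost their calls with library totals (adjusted p = 0.0667 and 0.0643) and with all 18 libraries in 1 fit (adjusted p = 0.200 and 0.289). The interaction kept its call in 12 of 12 fits that left out a library, with adjusted p up to 0.0454. The change under the WT label lost its call without WT untreated replicate 1 or 2 or WT NAC replicate 1 or 3 (log2 -1.68 to -1.21, adjusted p = 0.0600 to 0.187). The difference between labels with NAC lost it without WT NAC replicate 1 or 3 or HDAC3 KO NAC replicate 1 or 2 (log2 1.13 to 2.08, adjusted p = 0.0540 to 0.257). HDAC3 KO untreated replicate 1, the smallest library, held 16 counts of Ncoa4.

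Slc40a1, the iron exporter ferroportin whose 5′ IRE is printed above, followed the direction of Ncoa4. The gene lies at chr1:45908068-45926523 on the minus strand. Its untreated levels were 27.8, 38.4 and 22.9 CPM with the WT label and 9.81, 16.6 and 26.6 CPM with the HDAC3 KO label. The NAC libraries held 15.9, 19.3 and 9.89 CPM with the WT label and 39.0, 34.7 and 26.4 CPM with the HDAC3 KO label. Under the WT label the NAC libraries lay below the untreated ones, and with NAC the HDAC3 KO libraries lay above the WT ones, in both cases without overlap. The interaction was 2.27 (SE 0.58, adjusted p = 0.00655) and kept its call in 12 of 12 fits that left out a library. It was 0.76 (adjusted p = 0.367) with the GC and length offset.

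Ireb2 encodes the iron regulatory protein that is degraded when iron is plentiful, and it lies at chr9:54863789-54912530 on the plus strand. Ireb2 measured 18.1, 23.3 and 18.5 CPM with the WT label and 19.4, 6.49 and 2.74 CPM with the HDAC3 KO label without added cells. With NAC it measured 9.53, 16.5 and 12.0 CPM with the WT label and 17.4, 18.9 and 14.3 CPM with the HDAC3 KO label. The HDAC3 KO untreated group spread widely, with replicate 1 inside the WT range and replicates 2 and 3 under it. The interaction was 1.90 (SE 0.71, adjusted p = 0.0425). It was the least stable of the 5 calls: 10 of the 12 fits without a library gave an adjusted p of 0.05 or more (up to 0.147, log2 1.19 to 2.59 over all 12), the exceptions being those without WT NAC replicate 2 or HDAC3 KO untreated replicate 1. It was not called by the Wald test of DESeq2 (1.47, adjusted p = 0.0907), nor by edgeR with the size factors of DESeq2 (1.48, adjusted p = 0.0995) or all 18 libraries in 1 fit (1.54, adjusted p = 0.0808). The offset brought it to 0.61 (adjusted p = 0.397).

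With AC, Ireb2 measured 17.5, 9.02 and 15.7 CPM with the WT label and 4.39, 8.83 and 5.27 CPM with the HDAC3 KO label. It fell by 1.43 on the log2 scale from NAC to AC within the HDAC3 KO label (SE 0.42, adjusted p = 0.0341), and the 3 AC libraries lay below the 3 NAC libraries. With the GC and length offset the change was -0.46 (adjusted p = 0.329), and the call was also lost with library totals (adjusted p = 0.0542) and all 18 libraries in 1 fit (adjusted p = 0.105). The call was lost without any of the HDAC3 KO NAC replicates or without HDAC3 KO AC replicate 1 or 3 (adjusted p = 0.0638 to 0.198), and kept without HDAC3 KO AC replicate 2. Between labels with AC, the HDAC3 KO libraries of Ireb2 were below the WT libraries without overlap, a log2 difference of -1.22 that did not pass (SE 0.47, adjusted p = 0.121), and with library totals these groups overlapped. With the GC and length offset this difference was -0.51 (adjusted p = 0.271).

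Slc11a1, the phagosomal metal transporter of myeloid cells, had the opposite sign. It lies at chr1:74375195-74386062 on the plus strand. In untreated macrophages Slc11a1 was at 275, 183 and 447 CPM with the WT label and 397, 1465 and 1205 CPM with the HDAC3 KO label. After coculture with NAC it was at 688, 384 and 1128 CPM with the WT label and 477, 419.5 and 428 CPM with the HDAC3 KO label. HDAC3 KO untreated replicates 2 and 3 were the highest of all 18 libraries. The interaction was -2.15 (SE 0.64, adjusted p = 0.0142), and it kept its call in 12 of 12 fits that left out a library. After the offset it was -0.79 (adjusted p = 0.325).

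In untreated macrophages Slc11a1 also had the largest difference between labels among the 10 genes, 1.71 (SE 0.54, adjusted p = 0.0531). It passed under 4 other settings (adjusted p = 0.00656 to 0.0440) and without HDAC3 KO untreated replicate 1 (log2 2.02, adjusted p = 2.5e-05). Without that library, 8 of the 10 genes were called between labels in untreated macrophages, and 46.3% of all genes were called in that fit. With the GC and length offset the difference was 0.74 (adjusted p = 0.430), and 0 of the 10 genes passed.

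Ftl1 lies at chr7:45457944-45459884 on the minus strand, and Fth1 at chr19:9982703-9985092 on the plus strand. Untreated macrophages had Ftl1 at 17455, 10575 and 22807 CPM with the WT label and 34728, 57235 and 27079 CPM with the HDAC3 KO label. Those given NAC had it at 51890.4, 23753 and 39613 CPM with the WT label and 24471, 22995 and 19367 CPM with the HDAC3 KO label. Under the WT label the NAC libraries lay above the untreated ones, and under the HDAC3 KO label they lay below them, without overlap in either. With library totals the HDAC3 KO groups overlapped. The interaction of Ftl1 was -1.68 (SE 0.59, adjusted p = 0.0331). Without WT untreated replicate 2, WT NAC replicate 1, HDAC3 KO untreated replicate 2 or HDAC3 KO NAC replicate 1 or 3 its adjusted p was 0.0528 to 0.0661. With library totals it was -1.08 and not called (adjusted p = 0.0822). After the offset it was 0.03 (SE 0.49, adjusted p = 0.979).

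Fth1 moved with Ftl1, but its interaction did not pass, at -1.48 (SE 0.59, adjusted p = 0.0545). Fth1 levels untreated were 35943, 18964 and 42415 CPM with the WT label and 48581, 98596 and 57052 CPM with the HDAC3 KO label. Its NAC levels were 67466, 45611 and 74267 CPM with the WT label and 42195, 40212 and 29404 CPM with the HDAC3 KO label. The groups were ordered as for Ftl1, without overlap, and again overlapped under the HDAC3 KO label with library totals. With the GC and length offset the interaction was -0.90 (adjusted p = 0.279). Fth1 was called with the size factors of DESeq2 (log2 -1.87, adjusted p = 0.0283), its Wald test, no filter or all 18 libraries in 1 fit, and not with library totals (-0.92, adjusted p = 0.132).

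Across the 10 genes, the offset drew the interaction towards 0 for 9 of 10, grew and turned that of Hmox1 from -0.13 to 0.94, and left 0 of the 10 called, against 12.4% of all genes. The interactions of Ftl1 (-1.68 to 0.03) and Aco1 (-0.20 to 0.12) also changed sign. Without the offset, the 4 genes of lowest GC content (Ireb2, Tfrc, Slc40a1 and Ncoa4, 38.4% to 45.0%) had interactions from 1.61 to 3.29, and the other 6 genes (51.0% to 57.7%) had interactions from -2.15 to -0.13. Of the messengers with a 5′ IRE, Slc40a1 was above 0 without the offset (2.27), and Ftl1 (-1.68) and Fth1 (-1.48, not called) were below. With the offset they were at 0.76, 0.03 and -0.90. An IRE in a 5′ UTR acts on translation, so messenger counts cannot show its part, which was not tested.

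**Figure D4:**
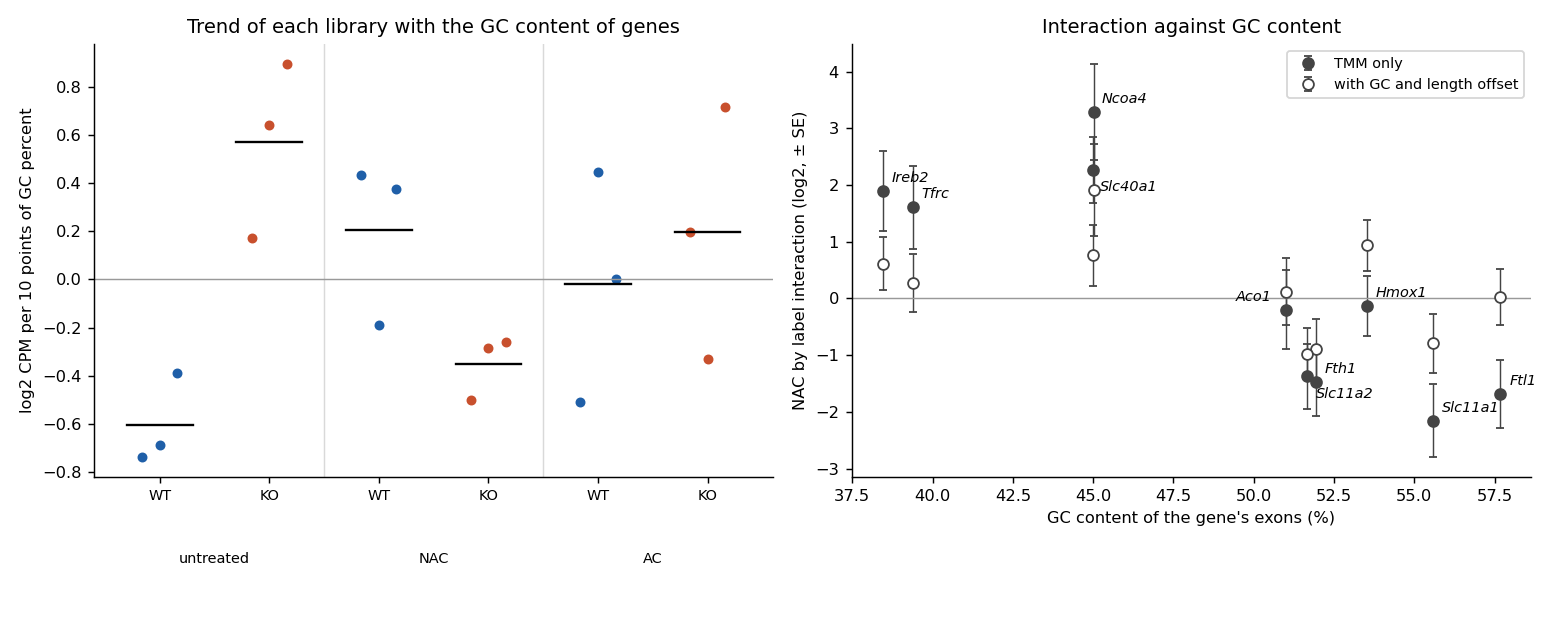
GC content and the NAC response. Left, slope of log2 CPM on GC percent in each library (per 10 points), by treatment and label with group means as bars, and right, the interaction of each gene with its standard error against the GC content of its exons, without (filled) and with (open) the GC and length offset. The WT and HDAC3 KO slopes change order between untreated and NAC libraries, and Ftl1 goes from -1.68 to 0.03.

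Tfrc and Slc11a2 completed the uptake genes, and neither interaction with NAC passed in the edgeR fit reported here. Tfrc lies at chr16:32608920-32632794 on the plus strand. Tfrc was at 49.3, 63.5 and 55.8 CPM with the WT label and 56.6, 15.3 and 9.55 CPM with the HDAC3 KO label in untreated macrophages. NAC libraries had 21.7, 61.6 and 34.0 CPM with the WT label and 35.3, 57.3 and 41.6 CPM with the HDAC3 KO label. AC libraries had 49.6, 25.5 and 37.3 CPM with the WT label and 47.9, 53.4 and 10.9 CPM with the HDAC3 KO label. Low values of 9.55 to 15.3 CPM were limited to HDAC3 KO untreated replicates 2 and 3 and HDAC3 KO AC replicate 3. The interaction of Tfrc with NAC was 1.61 (SE 0.74, adjusted p = 0.0935), and 0.27 with the offset (adjusted p = 0.769). Of 12 proliferation genes, which are often high together with Tfrc, the summed level was 62.9 to 150 CPM in WT untreated and 123 to 187 CPM in HDAC3 KO untreated libraries.

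Slc11a2, at chr15:100387898-100425072 on the minus strand, was at 44.6, 48.6 and 50.5 CPM with the WT label and 74.2, 82.2 and 191 CPM with the HDAC3 KO label in untreated macrophages. In NAC libraries it was at 129, 55.2 and 59.6 CPM with the WT label and 47.8, 63.0 and 66.3 CPM with the HDAC3 KO label. In AC libraries it was at 35.9, 92.4 and 58.9 CPM with the WT label and 80.1, 56.0 and 89.4 CPM with the HDAC3 KO label. In untreated macrophages the HDAC3 KO libraries lay above the WT libraries, with a log2 difference of 1.15 that did not pass (SE 0.43, adjusted p = 0.0818). With library totals these groups overlapped, and the Wald test of DESeq2 called the difference (1.27, adjusted p = 0.0228). The NAC interaction of Slc11a2 was -1.37 (adjusted p = 0.0627), and the Wald test called it too (-1.76, adjusted p = 0.0100), as did edgeR with the size factors of DESeq2, with no filter or with all 18 libraries in 1 fit (-1.75 to -1.58, adjusted p = 0.0206 to 0.0427). With the offset the difference and the interaction were 0.69 (adjusted p = 0.322) and -0.98 (adjusted p = 0.16). The highest value, 191 CPM, was that of HDAC3 KO untreated replicate 3.

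Hmox1, the inducible heme oxygenase, was higher in libraries labelled HDAC3 KO in each treatment on the TMM scale. The gene lies at chr8:75093621-75100589 on the plus strand. Hmox1 levels untreated were 540.0, 546 and 438 CPM with the WT label and 596, 874 and 1557 CPM with the HDAC3 KO label. They were 631, 634 and 490.0 CPM with the WT label and 929, 881 and 653 CPM with the HDAC3 KO label after NAC. They were 630.0, 766 and 456 CPM with the WT label and 1029.6, 785 and 1119.7 CPM with the HDAC3 KO label after AC. In each treatment the 3 HDAC3 KO libraries lay above the 3 WT libraries. With library totals this held for NAC and AC, but untreated the groups overlapped, at 584, 826 and 442 (WT) and 503, 647 and 1233 (HDAC3 KO) CPM by library totals. On the TMM scale, 8 of 11539 genes tested in all 3 treatments (0.0693%) had groups that did not overlap in the same direction each time, and Hmox1 was the single member among the 10. This count was made after its values had been seen.

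No difference between labels in Hmox1 passed within a treatment. The log2 differences were 0.86 (SE 0.45, adjusted p = 0.171) untreated, or 0.36 with library totals, 0.52 (SE 0.35, adjusted p = 0.335) with NAC and 0.60 (SE 0.40, adjusted p = 0.367) with AC. Averaged over the 3 treatments in a single edgeR fit of 18 libraries, which was added after these values had been seen, the difference was 0.71 (SE 0.21, adjusted p = 0.0672). In this averaged comparison 1.44% of all genes and 0 of the 10 were called, 3 of the 10 had an unadjusted p under 0.05 (21.8% of all genes), and the Wald test of DESeq2, which called 8.53% of all genes, called 2, Hmox1 (log2 0.71, adjusted p = 0.0133) and Aco1 (0.99, adjusted p = 0.0189). If libraries of different treatments share animals, the p values of this fit are too small. Leaving out each of the 18 libraries gave 0.56 to 0.81 for Hmox1, above 0 in 18 of 18 fits, with adjusted p from 0.0116 to 0.199, and it passed without WT AC replicate 2, HDAC3 KO untreated replicate 1 or HDAC3 KO AC replicate 2. With the GC and length offset the averaged difference was 0.57 (adjusted p = 0.0771), and separate fits with the offset gave 0.17 untreated, 0.89 with NAC and 0.52 with AC. No change of Hmox1 with either coculture against untreated passed, with log2 changes of -0.11 to 0.19 and standard errors of 0.35 to 0.47. Its changes with NAC turned direction with the offset, from 0.13 to -0.36 under WT and from -0.11 to 0.48 under HDAC3 KO, and so did the interaction, from -0.13 to 0.94 (SE 0.45, adjusted p = 0.172).

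Aco1 encodes the iron regulatory protein that is a cytosolic aconitase when it holds an iron-sulfur cluster. It lies at chr4:40143081-40198338 on the plus strand. Aco1 untreated was at 30.2, 23.7 and 28.8 CPM with the WT label and 11.6, 58.3 and 108 CPM with the HDAC3 KO label. Under NAC it was at 27.7, 30.3 and 24.4 CPM with the WT label and 48.6, 33.4 and 38.0 CPM with the HDAC3 KO label. Under AC it was at 33.7, 27.4 and 30.7 CPM with the WT label and 75.0, 33.1 and 119 CPM with the HDAC3 KO label. The 9 WT libraries were close together, from 23.7 to 33.7 CPM, and the 9 HDAC3 KO libraries ran from 11.6 to 119 CPM, with only the smallest library below the WT range. Aco1 had the largest difference between labels with AC among the 10 genes, 1.23 (SE 0.44, adjusted p = 0.102), and it passed without HDAC3 KO AC replicate 2 (1.65, adjusted p = 0.0143). With the GC and length offset this difference was 0.70 (adjusted p = 0.214), level with that of Ftl1 (0.70, adjusted p = 0.174). The averaged difference was 0.99 (SE 0.29, adjusted p = 0.0657), and 0.64 with the GC and length offset (adjusted p = 0.153).

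Of the changes with AC among the 10 genes, edgeR called only the fall of Ireb2 from NAC to AC under the HDAC3 KO label, given above. In that comparison 7.38% of all genes were called. Against untreated macrophages, the largest fitted change was that of Tfrc under the WT label (-0.67, SE 0.33, adjusted p = 0.395) and that of Ncoa4 under the HDAC3 KO label (0.97, SE 0.75, adjusted p = 0.543). Against NAC under the WT label it was that of Ncoa4 (0.97, SE 0.40, adjusted p = 0.898). Over the other settings the Tfrc change against untreated ran from -0.78 to -0.16 (adjusted p = 0.180 to 0.811). That of Ncoa4 against untreated under HDAC3 KO ran from 0.43 to 1.26 (adjusted p = 0.395 to 0.912). The largest interactions with AC were those of Slc11a1 against untreated (-1.29, SE 0.74, adjusted p = 0.285) and Ncoa4 against NAC (-1.65, SE 0.76, adjusted p = 0.238). With AC, Fth1 was at 46616, 38019 and 34169 CPM with the WT label and 27069.8, 31318 and 56685 CPM with the HDAC3 KO label. Ftl1 then had 20087, 19646 and 18849 CPM with the WT label and 16187, 29015 and 34676 CPM with the HDAC3 KO label. Both chains lay inside the range of the untreated and NAC libraries, and the labels overlapped. Slc40a1 with AC was at 27.3, 26.7 and 19.9 CPM with the WT label and 47.0, 26.0 and 18.5 CPM with the HDAC3 KO label. Ncoa4 with AC was at 43.9, 22.6 and 32.6 CPM with the WT label and 66.4, 10.5 and 31.2 CPM with the HDAC3 KO label. Slc11a1 with AC was at 375, 625 and 482 CPM with the WT label and 605, 308 and 1143 CPM with the HDAC3 KO label. The labels overlapped for each of these 3 genes too, and the HDAC3 KO replicates of Ncoa4 were the most spread. Under the WT label the AC libraries lay below the NAC libraries for Ftl1 (log2 -0.94) and above them for Slc40a1 (0.75) and Ncoa4 (0.97), without overlap. None of these changes passed edgeR's test (adjusted p = 0.898 for each), and 10.4% of all genes were separated in this comparison.

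Among other genes of iron and heme handling, the mitochondrial iron importer Slc25a37 was called in 6 of the 12 comparisons. Of 52 listed names, 51 were among the counted genes and 38 to 40 were tested in each comparison. The NAC interaction was called above 0 for 10 and below 0 for 6 of 39, where 34.8% of all genes were called, and the median was 0.38, against 0.12 over all genes. This split depended on the scaling and the fit: it was 9 above and 8 below with the size factors of DESeq2 or all 18 libraries in 1 fit, 9 and 9 with the Wald test, 10 and 1 with library totals, and 6 and 0 with the GC and length offset (12.4% of all genes). Among the smallest p values were those of Slc25a37 (3.81, adjusted p = 0.000895), the heme-binding repressor Bach1 (3.27, adjusted p = 0.00126) and the oxidative stress regulator Nfe2l2 (2.62, adjusted p = 0.00194). These 3 genes passed with the offset too, at 3.37 (adjusted p = 0.00604), 2.40 (adjusted p = 0.0127) and 1.39 (adjusted p = 0.0383).

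Under the WT label with NAC 3 of 38 rose and 3 fell, against 8.52% of all genes called. Among them were Glrx5, of iron-sulfur cluster assembly (1.68), Slc25a28, the paralog of Slc25a37 (1.34), Slc25a37 (-1.69) and Bach1 (-1.37). With the offset these were 0.94, 0.52, -1.43 and -0.95, and 0 of 38 passed, as with library totals. Under the HDAC3 KO label with NAC 4 of 39 rose (6.54% of all genes called), among them Slc25a37 (1.98), Nfe2l2 (1.63) and Fbxl5, the iron-sensing partner that removes the Ireb2 product (means of 34.6 and 13.8 CPM). The offset brought the changes to 1.82, 0.88 and 0.46, and 0 of 39 passed. With the size factors of DESeq2 in the edgeR fit 0 of the list and 0% of all genes were called, and with library totals 6 of the list and 17.4% of all genes.

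Between labels in untreated macrophages 2 of 39 listed genes were higher and 4 lower with the HDAC3 KO label, a share near the 11.6% of all genes. The split was 0 higher and 8 lower with library totals, 4 and 4 with the size factors of DESeq2 and 7 and 6 with its Wald test. Slc25a37 stood at a mean of 14.6 against 54.9 CPM, Nfe2l2 at 60.3 against 162 CPM and Glrx5 at 67.8 against 20.4 CPM. With the offset 0 of 39 passed, and the log2 differences of these genes were -1.87, -0.70 and 0.91. With NAC 2 of 38 were higher (0.864% of all genes called), Slc25a37 at 50.8 against 18.1 CPM and Bach1 at 36.1 against 12.6 CPM. Neither passed with the offset, at 1.26 (adjusted p = 0.164) and 1.13 (adjusted p = 0.172), and 0 of the list passed with library totals or all 18 libraries in 1 fit. From NAC to AC under the HDAC3 KO label Epas1 and Alas1, the rate-limiting enzyme of heme synthesis, rose (1.96 and 1.55) and Slc25a37 fell by 1.36 on the log2 scale, 3 of 39 in all, where 7.38% of all genes were called. With the offset Epas1 (1.45, adjusted p = 0.0476) and Slc25a37 (-1.66, adjusted p = 0.0185) passed and Alas1 did not (1.14, adjusted p = 0.185), and with all 18 libraries in 1 fit 0 of the list passed (1.84% of all genes). In the other comparisons edgeR called none of the list, where 8 of 39 (between labels with AC), 3 of 39 and 8 of 39 (AC against untreated under WT and HDAC3 KO), 1 of 40 (AC against NAC under WT), 14 of 39 and 8 of 40 (the interactions of AC against untreated and against NAC) had an unadjusted p under 0.05, and the Wald test of DESeq2 called 5, 0, 0, 0, 5 and 3 of them. Over all genes the shares in the same order were 24.3%, 12.7%, 14.5%, 4.16%, 24.1% and 20.0% at an unadjusted p under 0.05 and 11.2%, 0.0410%, 0.124%, 0%, 9.26% and 5.83% with the Wald test. The offset called 6 of the list between labels with AC (2 higher, 4 lower), where 10.5% of all genes were called.

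The genes most like each member over the 18 libraries, by Pearson r of log2 CPM, are given as a description, since all genes share library, depth and GC trend. Ftl1 was closest to its copy Ftl1-ps1 (r = 0.997) and then to Vkorc1 (0.959), and Fth1 to Akr1a1 (0.945) and Aldh3b1 (0.935). Slc11a1 was closest to Mboat7 (0.984) and Abhd4 (0.976), Slc11a2 to Cd5 (0.959) and Fbxo7 (0.946), and Hmox1 to Znfx1 (0.891) and Rcan3 (0.890). Slc40a1 was closest to Trim21 (0.899) and Abhd13 (0.898), and Tfrc had Ppp1r2 (0.935) among its closest 2. Ncoa4 was closest to Pstpip2 (0.923) and Tlr8 (0.908), Aco1 to Nckap1l (0.979) and Zbtb21 (0.979), and Ireb2 to Secisbp2l (0.962) and Zmym5 (0.957). No member had another of the 10 genes among its closest 2. Within the 10, the highest r was that of Fth1 with Ftl1 (0.902), and the lowest was that of Tfrc with Slc11a1 (-0.841), genes of low and high GC content.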

How the data were processed

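RNA from 18 macrophage libraries was measured by paired-end RNA-seq (NEBNext Ultra II). The authors deposited whole-number counts per gene for each library, not normalized. Their processing notes name Trimmomatic 0.36, STAR 2.5.2b, featureCounts of Subread 1.5.2 and GRCm38, and the annotation release and strand setting are not given in the sources used here, so antisense or overlapping genes may share reads. Of 49315 gene identifiers 49056 occur in GENCODE M21, and 9 of the 10 genes have its coordinates (Fth1 differs at its ends).

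Each comparison was fitted on its own groups with edgeR 4.0.16 in R 4.3.3 (filterByExpr with minimum count 10 and minimum total 15, TMM, robust glmQLFit, glmQLFTest), with Benjamini-Hochberg adjustment over all genes tested and a threshold of 0.05. The standard error is the absolute log2 fold change divided by the square root of F. Per-gene levels are CPM with TMM factors over 13662 genes kept in 18 libraries, divided by the counted length where genes are compared. The alternatives were the size factors or the Wald test of DESeq2 1.42.0, library totals, no filter, 1 fit of all libraries, blocking on the replicate number, a GC and length offset (smooths fitted in each library with mgcv 1.9.3) with and without that block, and each library left out in turn. The fit was tested on simulated data. The rule for naming gave values for each of the 10 genes that passed, for the largest change where none did, for up to 4 other iron genes per comparison and for the 2 genes most like each member. The cell type lists cover macrophage, erythroid, granulocyte, B cell, fibroblast, dendritic and proliferation genes. The members, lists and tests were chosen with earlier results of these data known. Replicates are labelled biological, and where they share animals p values measure only the spread between libraries. Some genes are not reported here.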

Additional observations from a re-analysis of the deposited data

Results flagged for a closer look

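The response to NAC differed between the WT and HDAC3 KO labels, by an interaction term in edgeR's quasi-likelihood test, for 5 of the 10 genes. The differences on the log2 scale were 3.29 for Ncoa4, 2.27 for Slc40a1, 1.90 for Ireb2, -2.15 for Slc11a1 and -1.68 for Ftl1, and the same test called 34.8% of all genes. The slope of log2 CPM on the GC content of genes changed order between the labels in the same 4 groups, and its part in these interactions was not tested. With the GC and length offset the 5 differences were 1.91, 0.76, 0.61, -0.79 and 0.03, and none passed. No group had more than 3 libraries, so single libraries were not screened as outliers.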

How the results depend on the processing

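How many of the 10 genes were called changed with the settings. The share of all genes called, given in brackets, moved too. Between labels in untreated macrophages the count of 0 became 3 with the Wald test of DESeq2 or all 18 libraries in 1 fit (27.4% and 24.2% of all genes called). It became 1 with DESeq2 size factors or no filter (13.5% and 5.69%). Between labels with NAC the count of 1 became 2 with the Wald test or no filter (3.64% and 2.28% of all genes). It became 0 with library totals, 1 fit of all libraries, or the GC and length offset (0.134%, 0% and 0%). For NAC against untreated under WT, 1 became 4 with the Wald test or a replicate block (14.1% and 15.0% of all genes). It became 0 with library totals, 1 fit of all libraries or the offset (0% in each). Under HDAC3 KO, 0 became 1 with library totals or no filter (17.4% and 6.30% of all genes). For AC against NAC under HDAC3 KO, 1 became 0 with library totals, 1 fit of all libraries or the offset (4.72%, 1.84% and 5.55% of all genes). The NAC interaction (5 genes) gave 0 with the offset (12.4% of all genes) and 4 to 7 otherwise (15.1% to 43.4%). Ireb2 lost its call with the Wald test, DESeq2 size factors and 1 fit of all libraries, and Ftl1 with library totals. The interaction of Ftl1 turned from -1.68 to 0.0253 with the offset and to 0.00222 with the offset and the replicate block. The averaged difference between labels (0) gave 2 with the Wald test and 1 with no filter (8.53% and 2.81% of all genes). In the other comparisons the count stayed 0 under each of these settings (0% to 11.2% of all genes). The GC and length offset with the replicate block gave 0 throughout (0% to 9.97% of all genes). The cause was not tested.

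Leaving out each library in turn, the counts ranged from 0 to 8 (untreated), 0 to 2 (NAC) and 0 to 2 (AC) between labels, 0 to 7 (WT) and 0 to 5 (HDAC3 KO) for NAC against untreated, 0 to 2 for AC against NAC under HDAC3 KO, 3 to 8 for the NAC interaction, 0 to 1 for the interaction of AC against NAC and 0 to 3 for the averaged difference. The share of all genes called moved with them, from 0% to 46.3%, 24.6% and 13.3% between labels, 0.169% to 34.2% (WT) and 0% to 35.5% (HDAC3 KO) for NAC against untreated, 0% to 23.9% for AC against NAC under HDAC3 KO, 22.3% to 46.2% for the NAC interaction, 0% to 6.14% for that of AC against NAC and 0.00714% to 16.0% for the averaged difference. The 8 of the NAC interaction came without WT NAC replicate 2 or HDAC3 KO untreated replicate 1, and the 3 without WT untreated replicate 2, WT NAC replicate 1 or HDAC3 KO NAC replicate 1 or 3. The 7 came without WT NAC replicate 2, and the 5 without HDAC3 KO untreated replicate 1.

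Whether replicate numbers pair the libraries is not known. Correlations of same-numbered deviations ran from -0.33 to 0.46, and were above 0 in each of the 3 pairs for NAC and AC against untreated under WT and AC against NAC under HDAC3 KO, but in no comparison over 0.1 in all 3 pairs, so the fits without the block are the ones reported. The block moved the count for NAC against untreated under WT from 1 to 4 and no other count of the 10 genes over 1.5 times. Over all genes it took the calls for NAC against untreated under HDAC3 KO from 794 to 0 (the iron list from 4 to 0), those under WT from 1015 to 1784, those between labels with NAC from 103 to 217, those for AC against NAC under HDAC3 KO from 904 to 1400, those for AC against untreated under WT from 0 to 53 and those for the interaction of AC against NAC from 10 to 152. Of 173 refits of single values, 135 kept direction and side of the threshold, 24 lost and 12 gained a call and 2 turned direction. The number of all genes called also moved, for the NAC interaction from 4530 to 1617 with the offset and 5639 with the Wald test. Depth was lowest for Ncoa4 in HDAC3 KO untreated replicate 1, with 16 counts.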
